A study of Homo sapiens with 18 samples.

Results

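The RNA of SMARCAL1 knockout clone 2 was compared with that of its control by PLATE-seq, which counts polyadenylated RNA of many samples pooled from a plate, in 4 of the 18 libraries of the series: the 2 libraries whose titles name clone 2 and the 2 titled as the plate control. Members were the 8595 genes with enough counts to be tested, of 44267 gene entries. The titles name MDA-MB-436, an established human triple-negative breast cancer line, although the tags of the 12 PLATE-seq samples give each one its own line, the first MDA-MB-437 and the last MDA-MB-448; all were taken as MDA-MB-436. The control carries the genotype tag Control. Clone 2 carries the tag SMARCAL1 knockout and is a line grown from 1 clone. The other 8 PLATE-seq libraries were 2 each of knockout clones 1 and 3, of cells given a control siRNA and of cells given siRNA against SMARCAL1, and they entered the same fit for its estimate of the spread. The labels list no drug or stimulus, and all groups share 1 medium. They do not say how the gene was disrupted, or whether the control was itself cloned. The remaining 6 libraries were TruSeq libraries of total RNA, 3 of a control and 3 of clone 1. The labels call the replicates biological, and p-values measure the spread between such samples. Both clone 2 libraries come from 1 clone, so the p-values do not measure the spread between clones. With 1 clone set against 1 control, an effect of the knockout cannot be told apart from another difference between the lines.

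SMARCAL1 is an annealing helicase of the SNF2 family. It binds RPA, the protein that coats single-stranded DNA, and remodels stalled replication forks. DNA that leaks from damaged nuclei can be sensed by cGAS, which signals through STING to interferon and inflammatory genes. The title of the series names innate immune signalling and PD-L1, the checkpoint ligand encoded by CD274, as the readouts of interest.

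The clone 2 libraries held 920828 and 960428 gene counts and the control libraries 890402 and 807861, against 807861 to 3068887 over the 12 PLATE-seq libraries. Values are given in CPM, counts scaled to library size, and 3 counts, the smallest sum treated as detected, stood for 3.07 to 3.12 CPM in clone 2. In the control they stood for 3.32 to 3.72. Of the 22 leukocyte markers listed, 0 had enough counts to be tested and 16 had no count in the 4 libraries; the 12 endothelial markers gave 0 and 10. PTPRC, CD3D, CD14, CDH5, VWF and KDR were all at 0. Among mammary markers ESR1, PGR, KRT14 and KRT16 had no count, while VIM, EGFR and KRT81 were present in all 4 libraries. On the first principal component, which held 14.1% of the variance, clone 2 stood at -39.5 and -45.8 and the other 10 libraries between -12.6 and 27.2. The control libraries stood as far apart on the second, which held 13.3%, at 31.1 and 61.4 against -20.8 to 1.99 elsewhere, and they were split on the third (10.98%), at 57.6 and -34.9. In log CPM the 2 clone 2 libraries correlated at 0.865 with each other. With the clone 1 libraries they correlated at 0.883 to 0.893, and with the control libraries at 0.834 to 0.856. Clone 2 and control were the 4 libraries with the fewest counts, and the part of depth in these values was not tested.

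The targeted gene, SMARCAL1 (GRCh38 chromosome 2, 216412414 to 216483053, plus strand), was counted 8 and 3 times in clone 2 and 0 and 3 times in the control. The ratio of the summed counts, per library size, was 3.24 with an exact 95% counting interval from 0.855 to 18.1. The fitted log2 difference was 1.62 ± 1.42 (SE), with an edgeR adjusted p of 0.758. So few counts could not show a loss of the transcript, and a count over the whole gene does not report on the protein. In the libraries given SMARCAL1 siRNA the gene was counted 0 times, and in the siRNA control it stood at 6.14 and 5.62 CPM.

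CD274, which encodes PD-L1, stood at 9.36 and 12.3 CPM in clone 2 and at 12.2 and 2.48 CPM in the control. The clone 2 values lay inside or beside the range of the control, and the log2 difference of 0.53 ± 0.80 (SE) had an adjusted p of 0.883. Against the siRNA control, at 26.3 and 23.9 CPM, the difference was -1.20 with an adjusted p of 0.662. Clones 1 and 3, from 7.64 to 19.1 CPM, were also below the siRNA control, but not below the first control, whose range they overlapped or exceeded.

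Clone 2 against control gave 3 genes past an adjusted p of 0.05 out of 8595, or 0.0349%: DKK1 rose (0.0116% of genes), and BEX1 and CTBP2 fell (0.0233%). All p-values here are two-sided from edgeR's quasi-likelihood F test with Benjamini-Hochberg adjustment over the genes tested. At an unadjusted p under 0.05 stood 830 genes (9.66%), 425 of them higher in clone 2 (4.94%) and 405 lower (4.71%). DESeq2 called 39 genes on the same counts. The count rested on single libraries: leaving out clone 2 replicate 1 gave 9 calls and leaving out clone 2 replicate 2 gave 0. Leaving out control replicates 1 and 2 gave 2 and 3 calls. Of these 4 counts, 2, 0, 1 and 0 were among the 3 genes. In simulated data 14% of genes with a 2-fold change, 68% with a 4-fold and 96% with an 8-fold change were called. These changes were placed together in 1 simulated set, 50 at each fold, only in genes with a mean of at least 20 CPM. With so many changed genes the Benjamini-Hochberg cutoff on p was looser than in the data, where 3 genes passed. The shares can therefore overstate what this comparison would call. The spread was the one the fit had estimated, so the shares do not cover genes with fewer counts.

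The sequences around the start sites of these 3 genes, and of KLF5, the gene next described, are shown because they are the members on which the comparison turns. Each run holds 250 bases before and 50 bases after a RefSeq start site (GRCh38.p14), read 5′ to 3′ on the gene's strand. For CTBP2, with 5 start sites in that table, and KLF5, with 2, the outermost site is shown. The positions are chr10:52314031-52314330 for DKK1, chrX:103064122-103064421 for BEX1, chr10:125160981-125161280 for CTBP2 and chr13:73054726-73055025 for KLF5. Capitals mark 5 motifs searched on both strands, which do not overlap each other here: the TATA box with the letters TATAAA, the CCAAT box with the letters of its name, the GC box with the letters GGGCGG, the AP-1 site with the letters TGANTCA and the TCF/LEF site with the letters CTTTGAT.
DKK1: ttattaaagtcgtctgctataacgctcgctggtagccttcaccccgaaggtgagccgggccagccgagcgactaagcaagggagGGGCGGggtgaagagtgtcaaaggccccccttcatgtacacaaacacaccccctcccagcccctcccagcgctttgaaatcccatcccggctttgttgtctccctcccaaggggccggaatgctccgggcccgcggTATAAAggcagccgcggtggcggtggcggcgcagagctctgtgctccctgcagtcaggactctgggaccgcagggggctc
BEX1: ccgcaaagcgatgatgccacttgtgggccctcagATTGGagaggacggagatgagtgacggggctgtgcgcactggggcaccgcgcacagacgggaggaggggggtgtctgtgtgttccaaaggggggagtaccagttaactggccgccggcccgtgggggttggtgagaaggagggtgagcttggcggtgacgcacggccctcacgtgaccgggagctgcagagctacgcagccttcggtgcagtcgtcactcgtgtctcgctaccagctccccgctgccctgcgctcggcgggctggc
CTBP2: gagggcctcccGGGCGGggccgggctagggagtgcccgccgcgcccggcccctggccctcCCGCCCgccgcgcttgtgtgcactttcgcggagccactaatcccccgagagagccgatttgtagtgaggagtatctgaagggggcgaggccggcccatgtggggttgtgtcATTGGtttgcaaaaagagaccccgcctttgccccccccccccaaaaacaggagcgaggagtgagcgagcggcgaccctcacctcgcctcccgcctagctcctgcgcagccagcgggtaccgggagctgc
KLF5: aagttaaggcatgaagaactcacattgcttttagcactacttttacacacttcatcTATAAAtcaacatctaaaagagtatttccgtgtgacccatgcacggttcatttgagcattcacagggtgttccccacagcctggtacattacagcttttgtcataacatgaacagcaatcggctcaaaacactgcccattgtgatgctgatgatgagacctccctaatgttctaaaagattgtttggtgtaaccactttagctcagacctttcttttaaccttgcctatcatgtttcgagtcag
DKK1 held TATAAA at 30 bases before the start, a motif found in 11.5% of the 35116 promoters of the table, and 1 GGGCGG, found in 45%. BEX1 and CTBP2 each held 1 CCAAT on the opposite strand, found in 34.6%, and CTBP2 also held 2 GGGCGG. KLF5 held TATAAA at 194 bases before its start. None of the 4 windows held the AP-1 letters, found in 7.71% of promoters, or the TCF/LEF letters, found in 2.62%.

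BEX1 (chromosome X, 103062651 to 103064240, minus strand), a small signalling adaptor first known from brain, stood at 48.9 and 25.6 CPM in clone 2 and at 136 and 205 CPM in the control. Both clone 2 values lay below all 10 other PLATE-seq libraries, the nearest being clone 1 at 52.97 and 63.0 CPM. The log2 change was -2.19 ± 0.36 (SE, adjusted p 0.0128). It was -1.91 against the siRNA control (adjusted p 0.0177). The adjusted p rose to 0.212 when clone 2 replicate 2 was left out and to 0.126 when control replicate 2 was. In the TruSeq libraries, which share none with PLATE-seq, BEX1 in clone 1 was lower by -1.33 on the log2 scale (adjusted p 0.000417).

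CTBP2 (chromosome 10, 124984317 to 125161170, minus strand), a transcriptional corepressor, stood at 1.04 and 5.12 CPM in clone 2, from 1 and 5 counts, and at 48.7 and 53.3 CPM in the control. The log2 change was -4.01 ± 0.66 (SE, adjusted p 0.0128), and leaving out any 1 of the 4 libraries raised the adjusted p to between 0.0547 and 0.0922. The control was also the highest group: the other 8 libraries ran from 9.53 to 25.3 CPM. Against the siRNA control the difference was -2.98 with an adjusted p of 0.0787. In TruSeq, clone 1 differed from its control by -0.06 (adjusted p 0.763). Exons of CTBP2 overlap those of ZRANB1 on the other strand, and without a stated strand setting reads of the genes cannot be told apart.

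DKK1 (chromosome 10, 52314296 to 52318042, plus strand), a secreted antagonist of WNT signalling that binds the coreceptors LRP5 and LRP6, stood at 83.2 and 216 CPM in clone 2 and at 11.1 and 8.68 CPM in the control. The log2 change was 3.91 ± 0.67 (SE, adjusted p 0.0146). All 10 other PLATE-seq libraries were above the control, from 11.9 CPM in SMARCAL1 siRNA to the 216 CPM of clone 2, and the siRNA control itself held 72.8 and 19.7 CPM. Against that control the difference was 1.71 (adjusted p 0.309). Clones 1 and 3 were at 105 and 55.7 and at 106 and 35.5 CPM, so clone 2 differed from their mean by 0.99 (adjusted p 0.512). The adjusted p was 0.212 without clone 2 replicate 2, and 0.207 and 0.197 without control replicates 1 and 2. TruSeq clone 1 was higher by 0.55 (adjusted p 0.00402). An exon of PRKG1-AS1 overlaps DKK1 on the other strand.

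KLF5 (chromosome 13, 73054976 to 73077542, plus strand), a zinc finger transcription factor of proliferating epithelia, did not pass, with a log2 difference of 2.09 ± 0.40 (SE) and an adjusted p of 0.0548. It stood at 97.8 and 126 CPM in clone 2 and at 26.5 and 26.0 CPM in the control. The 10 other PLATE-seq libraries lay within 19.0 to 42.0 CPM, so clone 2 was set apart from all of them. KLF5 passed against the siRNA control (2.45, adjusted p 0.00738) and against clone 3 (1.63, adjusted p 0.0390), and missed the threshold against the mean of clones 1 and 3 (1.63, adjusted p 0.0519). In TruSeq, clone 1 was higher than its control by 0.84 (adjusted p 0.00990).

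**Figure D1:**
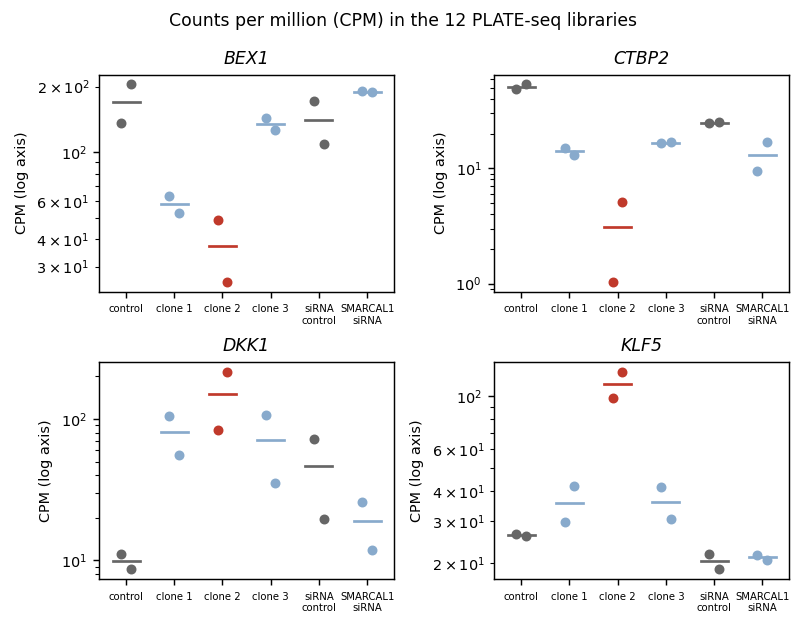
CPM on log axes for BEX1, CTBP2, DKK1 and KLF5 in the 12 PLATE-seq libraries, with 1 point per library and a bar at each group mean. KLF5 in clone 2 (97.8 and 126 CPM), BEX1 in clone 2 (48.9 and 25.6 CPM) and CTBP2 in clone 2 lie outside all other libraries. For DKK1 the control (11.1 and 8.68 CPM) lies below all others, and for CTBP2 the control also lies above all others.

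Between adjusted p values of 0.05 and 0.1 lay 12 more genes, so that 15 genes (0.175%) were under 0.1. Besides KLF5 these were SRP14, PI3, TMBIM6, PLAU, PTPRN, PMEPA1, ITM2C, CTBP1-AS2 and Y_RNA, all higher in clone 2, and VGF and AP000251.3, both lower. They were singled out after their values were seen. PLAU, the urokinase protease of pericellular proteolysis, had 133 and 289 CPM in clone 2 against 70.8 and 63.3 CPM, a log2 difference of 1.65 (adjusted p 0.0823). PI3, the elastase inhibitor elafin, had 385 and 374 CPM against 118 and 169 CPM (1.40, adjusted p 0.0823). TMBIM6, an inhibitor of cell death in the endoplasmic reticulum, had 776 and 620 against 280 and 340 CPM (1.17, adjusted p 0.0823). The clone 2 values of PI3 and TMBIM6 lay above all 10 other libraries.

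PMEPA1, a target and inhibitor of TGF-beta signalling, stood at 68.6 and 86.1 CPM against 15.5 and 29.8 CPM, a log2 difference of 1.78 (adjusted p 0.0823), and clone 3 was higher still at 93.8 and 110 CPM. VGF, a secreted neuroendocrine peptide precursor, stood at 34.3 and 30.7 CPM against 158 and 86.8 CPM (-1.91, adjusted p 0.0823), with clone 1 equally low at 30.3 and 27.3 CPM. AP000251.3 had no count in clone 2 and 34 counts in the control, which is at least 12.8-fold lower against a floor of 3 counts over the group. Y_RNA is a symbol shared by many near-identical copies, so its 78.0 and 422 CPM cannot be assigned to 1 gene. TruSeq tested 12 of the 15 genes under an adjusted p of 0.1. In clone 1, 11 had the same sign and 7 passed with it (BEX1, DKK1, ITM2C, KLF5, PLAU, PMEPA1 and VGF). Over all 17371 genes tested there, 6.27% passed in either direction. The share of all genes with the same sign was not counted, and clone 2 has no TruSeq library.

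**Figure D2:**
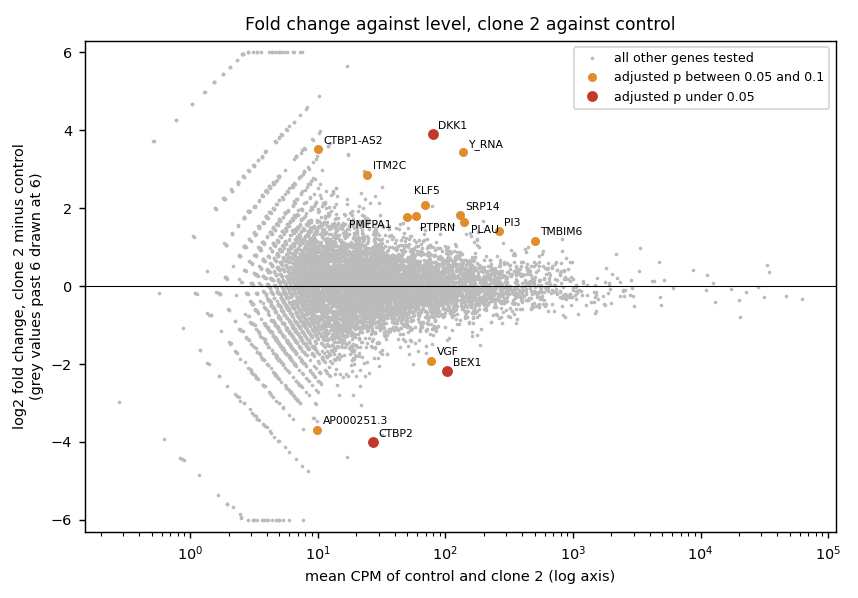
Log2 fold change of clone 2 minus control (vertical, grey values past 6 drawn at 6) against the mean CPM of both groups (horizontal, log axis) for the 8595 genes tested, with 1 point per gene. The 3 genes under an adjusted p of 0.05 are red and the 12 from 0.05 to 0.1 are orange; AP000251.3 and CTBP1-AS2 are drawn at their bounds, and the grey spread widens below about 20 CPM.

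Ranking by fold change was limited to genes that reached 20 CPM in one of the groups and whose clone 2 and control libraries did not overlap. This left 2088 genes, 1057 higher and 1031 lower in clone 2. Over all genes tested 38.3% did not overlap, 19.5% with clone 2 above and 18.8% with clone 2 below. The ranked genes are a description, and apart from DKK1 and CTBP2 none passed the threshold, with adjusted p values up to 0.233 among the 12 most positive and up to 0.594 among the 12 most negative. The median SE over all genes was 0.60 on the log2 scale.

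Among the 12 most positive, the WNT ligand WNT7B (chromosome 22, 45920362 to 45977129, minus strand) had 38.5 and 24.6 CPM in clone 2, against 3.32 and 2.48 CPM in the control, a log2 difference of 3.40 ± 0.81 (SE, adjusted p 0.105). Clone 1 was as high, at 45.2 and 37.1 CPM, and clone 3 as low as the control, at 1.33 and 1.52 CPM. WNT7B passed against the siRNA control (4.30, adjusted p 0.0214) and rose in clone 1 in TruSeq (2.32, adjusted p 0.000179). BDKRB2, the bradykinin B2 receptor, had 39.5 and 42.0 CPM against 9.95 and 0 CPM (2.96, adjusted p 0.105). ITM2C, a membrane protein of the BRICHOS family, had 52.0 and 33.8 CPM against 5.53 and 6.20 CPM (2.86, adjusted p 0.0863). SLC39A6, a zinc importer, had 31.2 and 77.9 CPM against 12.2 and 6.20 CPM (2.54, adjusted p 0.105).

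The other high ranks rested on very few control counts. CTBP1-AS2 had none and 39 in clone 2, at least 11.5-fold higher against the floor of 3 counts. RLF had 1 control count and a counting ratio of 56.5 (exact 95% interval 9.78 to 2266), but its 2 clone 2 libraries differed, at 61.4 and 5.12 CPM. KATNAL1, a katanin-like microtubule severing protein, had 3 control counts and a ratio of 13.2 (4.25 to 66.6). FAM8A1, FAM64A and NRBP2 each had 3 control counts against 43, a ratio of 12.7 (4.05 to 63.8). Of the 12 genes, 9 were tested in TruSeq: BDKRB2, DKK1, FAM8A1, ITM2C and WNT7B rose in clone 1 there, and RLF fell.

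Among the 12 most negative, GDPD1 had no count in clone 2 and 55 in the control, at least 20.8-fold lower against the floor, but clone 1 and the siRNA control were also at 0. HMMR, a spindle-associated hyaluronan receptor, had 7.28 and 2.05 CPM in clone 2, against 56.4 and 21.1 CPM in the control (-3.04, adjusted p 0.133). DPH2, an enzyme of diphthamide synthesis, had 4.16 and 3.07 CPM against 29.9 and 21.1 CPM (-2.79, adjusted p 0.105) and lay below all 10 other libraries, the lowest of which was 6.55 CPM. F11R, the tight junction protein JAM-A, had 9.36 and 6.15 CPM against 44.2 and 33.5 CPM (-2.32, adjusted p 0.117), and it fell in clone 1 in TruSeq (-0.65, adjusted p 0.00769).

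CD109, a TGF-beta coreceptor, had 5.20 and 3.07 CPM against 21.0 and 98.0 CPM (-3.81, adjusted p 0.105), with the siRNA control as low, at 0 and 6.32 CPM. The other negative ranks were PLAG1, CD320, TMEM65, C8orf82, SEMA4D and JPH3, with log2 differences of -2.80, -2.57, -2.53, -2.33, -2.32 and -2.31. All 12 negative genes were tested in TruSeq, where 6 had the same sign in clone 1 and F11R alone passed. Against the siRNA control, the 12 most positive genes kept their sign and 8 of the 12 most negative did; CD109, PLAG1 and JPH3 turned and GDPD1 had no count on either side.

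**Figure D3:**
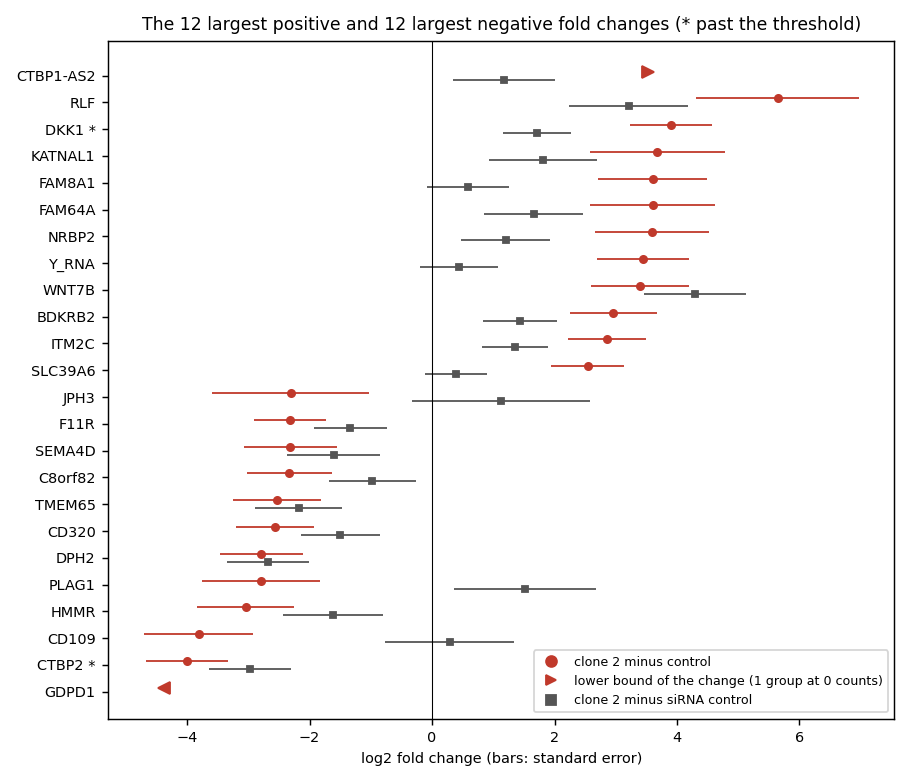
Log2 fold changes with standard errors for the 12 most positive and 12 most negative ranked genes of clone 2, against the control (circles) and against the siRNA control (squares); triangles are lower bounds where 1 group had no count, and stars mark genes past the threshold. The squares sit nearer 0 than the circles for all but WNT7B among the 22 genes that have both a circle and a square, and cross 0 for CD109, PLAG1 and JPH3.

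Against the siRNA control, a second pair of libraries with no SMARCAL1 knockout, given a control siRNA, 13 genes passed (0.151%), 8 higher (0.0931%) and 5 lower (0.0582%) in clone 2, of 775 at an unadjusted p under 0.05 (9.02%). Only BEX1 was among the 3 of the first comparison. IGFBP4, which binds insulin-like growth factors, had 56.2 and 63.5 CPM in clone 2 and 1.75 and 3.51 CPM in the siRNA control (4.43, adjusted p 0.00284); the other control lay between, at 14.4 and 28.5 CPM. CSF3, the granulocyte growth factor, had 267 and 526 CPM against 1380 and 1503 CPM (-1.86, adjusted p 0.00284), and the other control had 616 and 537 CPM. The 2 control groups did not overlap at either gene, without passing (adjusted p 0.258 for IGFBP4 and 0.192 for CSF3); over all genes, the siRNA control against the other control gave 1 call (0.0116%).

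Genes above the siRNA control included KLF5 and WNT7B, given above, PI3 (1.76, adjusted p 0.00779), HDLBP, the RNA-binding protein vigilin (1.39, adjusted p 0.0189), the cytokine receptor IL7R (1.48, adjusted p 0.0411) and the cell cycle gene CCND1 (1.48, adjusted p 0.0487). Those below were ADAMTS9, a matrix protease (-2.20, adjusted p 0.0134), the axon guidance ligand SEMA6B and AP000251.3. SEMA6B had 1 count in clone 2 and 71 in the siRNA control, 53.6-fold lower with an exact 95% counting interval from 9.32 to 2147. AP000251.3 was at least 11.1-fold lower. IL7R and HDLBP were also higher in clone 2 than in the first control, at 265 and 232 against 111 and 103 CPM and at 579 and 521 against 264 and 308 CPM, with adjusted p values of 0.117 and 0.178.

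Clone 2 was next compared with the mean of knockout clones 1 and 3, which leaves the control libraries out of the contrast. By edgeR 0 of 8595 genes passed, with 791 at an unadjusted p under 0.05 (9.20%); DESeq2 called 20. With a replicate block, or with either of 2 other scalings (DESeq2 size factors or upper-quartile), edgeR called 6 genes. Under an adjusted p of 0.1 were 9 genes (0.105%), named here after their values were seen: CLDN1, KLF5, SAA1, PTPRN, YBX1, GADD45A and QPRT higher, and SEMA6B and EAF1 lower. CLDN1, a tight junction claudin, had 31.2 and 54.3 CPM in clone 2, 14.3 and 9.83 CPM in clone 1 and 2.22 and 3.34 CPM in clone 3 (2.85, adjusted p 0.0519). The control, at 14.4 and 33.5 CPM, overlapped clone 2. SAA1, an acute phase protein, had 343 and 401 CPM in clone 2, and its difference came from clone 3, at 60.0 and 40.4 CPM, since clone 1 was at 430 and 532 CPM and the control at 341 and 464 CPM. With clone 1 alone the SAA1 difference turned to -0.37.

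PTPRN, a phosphatase-like protein of secretory granules, had 75.9 and 108 CPM in clone 2, 68.9 and 47.0 CPM in clone 1 and 14.7 and 20.04 CPM in clone 3 (1.53, adjusted p 0.0529). SEMA6B had 0 and 1.02 CPM in clone 2, 17.2 and 2.73 CPM in clone 1 and 51.5 and 43.7 CPM in clone 3. YBX1, a cold shock RNA-binding protein, had 75.9 and 340 CPM in clone 2, where the libraries differed most. With clone 1 alone in place of the mean 0 genes passed (438 at an unadjusted p under 0.05, 5.10%), and with clone 3 alone 65 did (0.756%), 35 higher (0.407%) and 30 lower (0.349%). The count against the mean was 37 without clone 3 replicate 1, against 6 without clone 2 replicate 1 and 1 without clone 1 replicate 2.

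**Figure D4:**
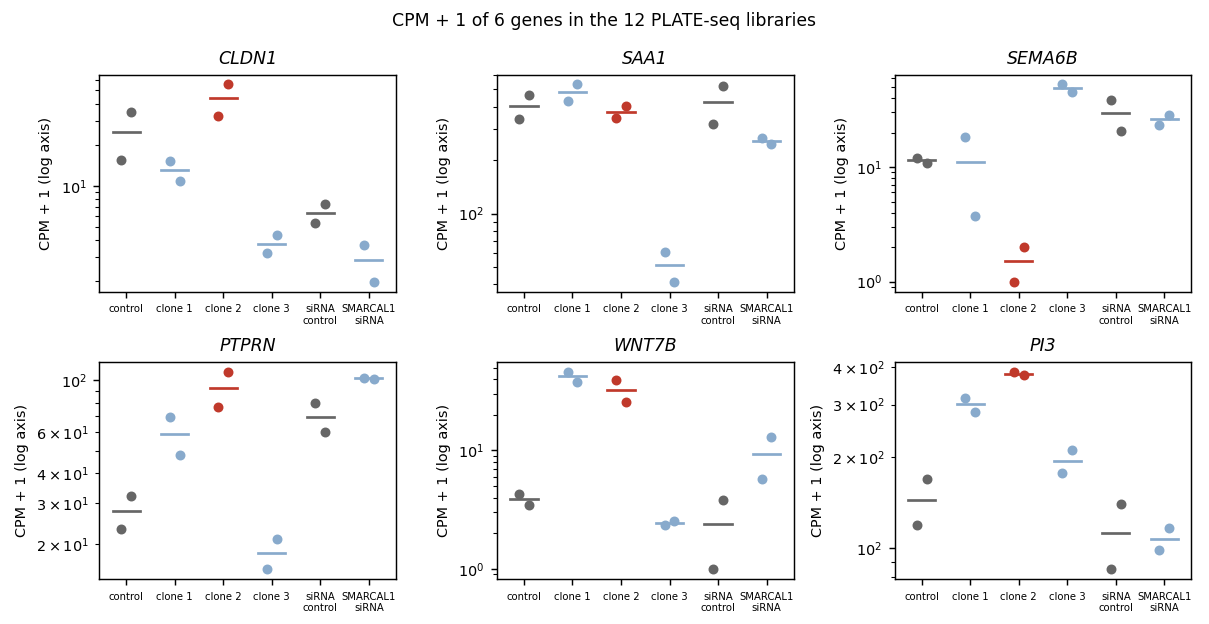
CPM + 1 on log axes for CLDN1, SAA1, SEMA6B, PTPRN, WNT7B and PI3 in the 12 PLATE-seq libraries, with 1 point per library and a bar at each group mean. Clone 3 is low for CLDN1 (2.22 and 3.34 CPM), SAA1 (60.0 and 40.4 CPM), PTPRN and WNT7B, and clone 2 is lowest of all groups for SEMA6B (0 and 1.02 CPM).

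Both clone 2 libraries lay above all 10 other PLATE-seq libraries for 261 genes (3.04%) and below all of them for 262 (3.05%), 6.08% of genes in all. The largest gap above, on a log2 scale with 2 CPM added, was at SCARA3, a scavenger receptor, with 45.8 and 37.9 CPM in clone 2 and at most 15.3 CPM elsewhere; it did not pass against the control (2.14, adjusted p 0.233). KLF5 had the third largest. The largest gap below was at NOA1, a mitochondrial GTPase, with 7.28 and 8.20 CPM in clone 2 and at least 15.8 CPM elsewhere (-2.16, adjusted p 0.233). WDR54 had 64.5 and 56.3 CPM and at least 98.8 CPM elsewhere (-1.33, adjusted p 0.112).

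Gene lists were described by counts and medians, beside a median log2 difference of 0.01 over all genes tested, of which 50.5% had a positive and 49.5% a negative sign. At an unadjusted p under 0.05, 4.94% of all genes were higher and 4.71% lower, the shares against which each list's counts are read. In 28 of the 29 lists with a tested member, 0 members passed by edgeR; DESeq2 counts were not made per list. The exception was the WNT pathway, with DKK1 up and CTBP2 down among 17 tested of 30 members. Its median was 0.66, from 0.53 to 0.98 when single libraries were left out, and it was 0.61 against the siRNA control. A positive sign was held by 14 of 17 members (82.4%, against 50.5% of all genes), and at an unadjusted p under 0.05 were 4 higher (23.5%, against 4.94%) and 1 lower (5.88%, against 4.71%). The list was put together with earlier results known and holds genes that had been seen to move. Ligand and inhibitor were higher together: WNT7B at 38.5 and 24.6 CPM and DKK1 at 83.2 and 216 CPM in clone 2.

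Interferon-stimulated genes had a median of 0.02 over 30 tested members of 55, with 15 signs either way. At an unadjusted p under 0.05, 2 were higher (6.67%) and 1 lower (3.33%), near the 4.94% and 4.71% of all genes. OAS3, an activator of RNase L, had 265 and 212 CPM in clone 2 against 106 and 124 CPM (1.05, adjusted p 0.161). EIF2AK2, the double-stranded RNA sensor PKR, had 91.5 and 87.1 CPM against 49.8 and 62.0 CPM (0.68, adjusted p 0.585). The summed level of the tested list was 1963 and 2477 CPM in clone 2, against 2702 and 2187 CPM in the control, so the groups overlapped.

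Sensing genes had a median of 0.05 over 21 tested. MB21D1, which encodes cGAS, had 27.0 and 30.7 CPM against 7.74 and 18.6 CPM (1.14, adjusted p 0.582), and TRIM56, a ubiquitin ligase that acts on STING, had 131 and 115 CPM against 65.2 and 65.7 CPM (0.91, adjusted p 0.317). Cytokines and chemokines had a median of 0.09 over 17 tested against the control and of -0.75 against the siRNA control, where 7 of the 17 were lower at an unadjusted p under 0.05 (4.56% of all genes). IL24 had 10.4 and 14.3 CPM in clone 2, against 14.4 and 34.7 CPM in the control and 47.3 and 48.4 CPM in the siRNA control. CXCL8 had 31.2 and 19.5 CPM against 17.7 and 13.6 CPM (0.68, adjusted p 0.714). The NF-kappa-B targets had a median of 0.02 (-0.25 against the siRNA control), with PLAU high, as above, and the feedback inhibitor NFKBIB at 54.1 and 64.5 against 107 and 95.5 CPM (-0.77, adjusted p 0.416).

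MHC class I genes had a median of 0.13 over 16 tested, and of -0.10 against the siRNA control. At an unadjusted p under 0.05, 2 were higher (12.5%, against 4.94% of all genes) and 0 lower (against 4.71%). Among these was HLA-E, a ligand of natural killer cell receptors, at 48.9 and 41.0 CPM against 18.8 and 19.8 CPM (1.21, adjusted p 0.310). The siRNA control had 41.2 and 51.9 CPM of HLA-E, level with clone 2. Reads of class I genes can be shared among near-identical family members. Checkpoint ligands and regulators had a median of 0.01 over 13 tested, with 0 at an unadjusted p under 0.05 in either direction; PVR, a ligand of TIGIT, had 38.5 and 23.6 CPM against 40.9 and 39.7 CPM (-0.38, adjusted p 0.825).

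Fork remodelling and protection genes had a median of -0.03 over 33 tested of 46 members. At an unadjusted p under 0.05, 3 were lower (9.09%, against 4.71% of all genes) and 0 higher (against 4.94%). RAD51C, a protein of homologous recombination, had 54.1 and 51.2 CPM in clone 2 against 121 and 107 CPM (-1.11, adjusted p 0.305), while the siRNA control had 59.6 and 59.7 CPM. RFWD3, a ubiquitin ligase that acts on RPA, had 39.5 and 47.1 CPM against 69.7 and 103 CPM (-0.99, adjusted p 0.362). Replication machinery had a median of 0.05 over 42 tested, and proliferation and mitosis genes 0.09 over 38. Of these 38, 3 were higher (7.89%, against 4.94% of all genes) and 3 lower (7.89%, against 4.71%) at an unadjusted p under 0.05. The spindle checkpoint gene BUB1B was at 86.3 and 114 CPM against 36.5 and 50.9 CPM (1.20, adjusted p 0.268). HMMR of the same list was lower, as given above. The p53 targets had a median of -0.23 over 18, which was 0.13 against the siRNA control and 0.07 without clone 2 replicate 2. Among them CDKN1A, the cell cycle inhibitor p21, had 101 and 160 CPM against 33.2 and 70.7 CPM (1.33, adjusted p 0.233).

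In 3 housekeeping lists more members had a negative sign than the 49.5% of all genes, and 0 passed by edgeR. Of 26 SR and hnRNP splicing proteins 20 had a negative sign (76.9%, median -0.33), of 67 respiratory chain genes 48 (71.6%, median -0.19) and of 72 cytosolic ribosomal proteins 52 (72.2%, median -0.15). At an unadjusted p under 0.05, 2, 7 and 7 of them were lower (7.69%, 10.4% and 9.72%, against 4.71% of all genes) and 1, 2 and 2 higher (3.85%, 2.99% and 2.78%, against 4.94%). Against the siRNA control the splicing median was -0.04, the respiratory chain median -0.15 and the ribosomal median -0.23. Against clones 1 and 3 they were -0.16, -0.28 and -0.32. In that comparison 1, 15 and 18 members were lower at an unadjusted p under 0.05, and 1, 1 and 0 higher. Over all genes 9.20% were under that p in either direction. SRSF3 had 96.7 and 98.4 CPM in clone 2 against 391 and 159 CPM (-1.50, adjusted p 0.105), but the siRNA control, at 64.9 and 121 CPM, was level with clone 2. The complex I subunit NDUFS3 had 158 and 223 CPM against 455 and 284 CPM (-0.95, adjusted p 0.208). NDUFA4 (0.80, adjusted p 0.459) and COX6A1 (0.79, adjusted p 0.397) of the same list were higher. Mitochondrially encoded transcripts made up 28.8% and 32.8% of clone 2 counts and 31.7% and 30.2% of control counts. The part that RNA composition plays in these signs was not tested.

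Negative signs also led in other lists. Of 26 unfolded protein and integrated stress response genes 18 had one (69.2%), with a median of -0.30. It was -0.32 against the siRNA control and -0.27 against clones 1 and 3. Of 24 hypoxia and glycolysis genes 16 had one (66.7%), with medians of -0.23, -0.18 and -0.14. At an unadjusted p under 0.05, 1 member of each was lower (3.85% and 4.17%, against 4.71% of all genes). Higher were 2 and 0. The rest gave scattered values. The cholesterol synthesis list had a median of -0.24 over 21, from -0.33 to -0.14 with single libraries left out. ABCC3, an NRF2 target and drug efflux pump, had 23.9 and 23.6 CPM against 3.32 and 6.20 CPM (2.31, adjusted p 0.233). CARS, a cysteinyl-tRNA synthetase, had 68.6 and 60.4 CPM against 370 and 104 CPM (-1.88, adjusted p 0.105). The 3 metallothioneins tested had a median of -0.79, between -1.37 and -0.38 with single libraries left out, and MT2A was 21616 and 7990 CPM in clone 2 against 15993 and 35212 CPM. Basal markers had a median of -0.05 over 12, from -0.28 to 0.48 with single libraries left out, of 0.44 against the siRNA control and of 0.55 against clones 1 and 3. Their signs were split, 6 positive and 6 negative. CAV1, a caveolar coat protein, was at 633 and 482 against 213 and 391 CPM (0.89, adjusted p 0.382). KRT5 was at 15.6 and 12.3 against 23.2 and 23.6 CPM. Luminal markers had a median of 0.66 over 7, from 0.03 to 0.84 with single libraries left out. Of these, 4 had a positive and 3 a negative sign. KRT7 was at 293 and 252 against 152 and 194 CPM (0.66, adjusted p 0.564). KRT8 was at 15.6 and 13.3 against 13.3 and 28.5 CPM, and KRT18 at 119 and 158 against 159 and 150 CPM.

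**Figure D5:**
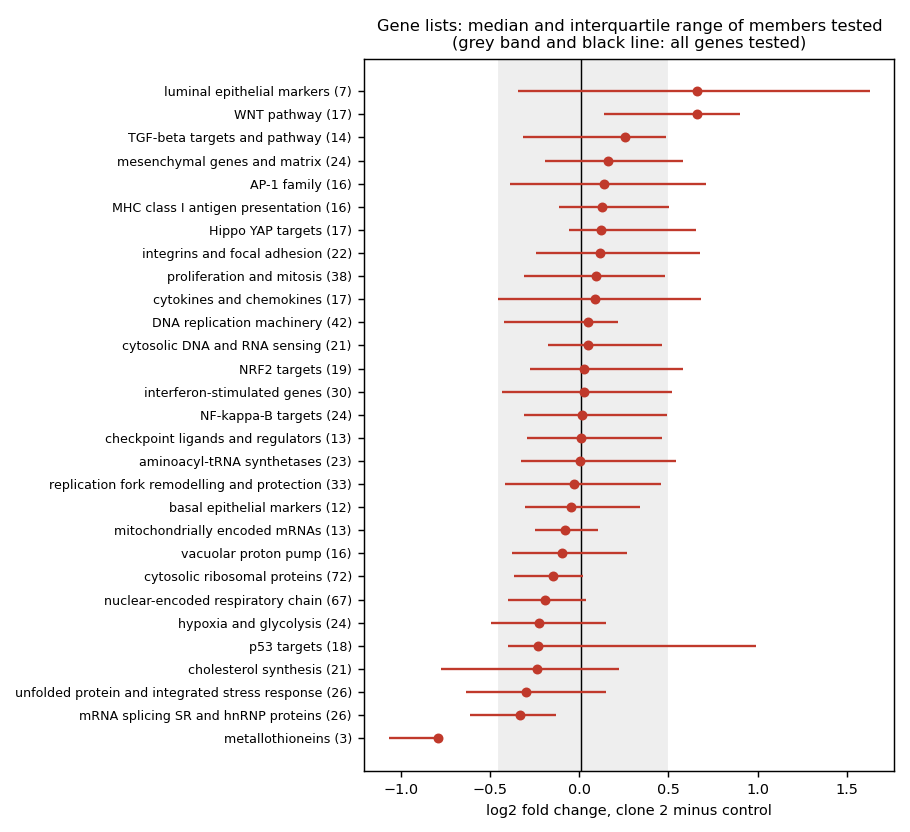
Median log2 fold change of clone 2 minus control (points) and the interquartile range of members (lines) for the 29 lists with members tested, numbers tested in brackets; the grey band is that range for all 8595 genes and the black line their median of 0.01. The WNT and luminal lists (both 0.66) and the metallothioneins (-0.79, 3 genes) lie farthest from the line.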

How the data were processed

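The deposited tables hold unnormalised counts for each gene symbol. Per the submitters' processing notes the authors used STAR, HTSeq and the hg38 build; versions, annotation and strand setting are not given in the sources used here. From them, 92 spike-in entries were left out, and 28 symbols turned into dates were kept but not named. edgeR 4.0.16 (R 4.3.3) fitted all 12 PLATE-seq libraries by group (filterByExpr, TMM, quasi-likelihood F test, 6 residual degrees of freedom, biological coefficient of variation 0.330), with a threshold of 0.05 on two-sided Benjamini-Hochberg p-values over 8595 genes. TruSeq (17371 genes, 10257584 to 19270648 counts) was fitted alone. SE was the log2 fold change over the square root of F. Counting intervals and floors cover counting error only. No replicate pair agreed within counting noise (chi-square per degree of freedom 5.66 to 19.1). On simulated data the fit called 8 of 7904 unchanged genes.

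The named genes were SMARCAL1, CD274, all genes past the threshold, the 12 most positive and 12 most negative among genes with at least 20 CPM and no overlap, and up to 4 per list; others are said to be chosen after their values were seen, and some genes are not reported here. Members, the 31 lists and these rules were chosen with earlier results of these data known. Coordinates are from GENCODE 29 (GRCh38, 1-based) by symbol, which held 29226 of 44265 symbols. Alternatives were DESeq2 1.42.0, other scalings and filters, a replicate block, leaving out libraries, and the siRNA control.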

Additional observations from a re-analysis of the deposited data

Results flagged for a closer look

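Clone 2 and clone 3 share their PLATE-seq control, so the difference between their effects is the direct difference between the clones, which edgeR tested. It passed for 65 genes (0.756% of 8595), 35 higher and 30 lower in clone 2, and for 0 genes between clones 2 and 1 (438 at an unadjusted p under 0.05). Of 92 genes chosen for the report, 17 passed. Many were chosen for their values in contrasts that hold the same clone 2 or clone 3 libraries. Their passing here is therefore not separate support. Higher in clone 2, on the log2 scale, were WNT7B by 4.38, CLDN1 by 3.88, INHBA by 3.15, ADM by 3.00, SAA1 by 2.89, SCARA3 by 2.51, QPRT by 2.44, IGFBP4 by 2.42, PTPRN by 2.39, GADD45A by 1.81 and KLF5 by 1.63. Lower were BEX1 with -1.86, VGF with -2.54, EAF1 with -2.58 and DPH2 with -3.12. SEMA6B was 90.9-fold lower, from 1 count against 260 (exact 95% counting interval 16.2 to 3603), and AP000251.3 was at least 5.94-fold lower against the floor. The adjusted p values ran from 1.17e-05 for SAA1 to 0.0461 for SCARA3. Clone 3 libraries held 2411594 and 3068887 counts and clone 2 libraries 920828 and 960428; the part of depth in these differences was not tested.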

How the results depend on the processing

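The 3 genes of clone 2 against control became 39 with DESeq2, 61 with no filter on low counts, 1 with only the 4 libraries fitted and 13 against the siRNA control; leaving out single libraries gave 0 to 9. The 0 genes against the mean of clones 1 and 3 became 6 with DESeq2 size factors, 6 with upper-quartile scaling, 6 with a replicate block, 20 with DESeq2, 37 with no filter and 65 against clone 3 alone; leaving out single libraries gave 0 to 37. The causes were not tested. Scaling, the stricter filter and the replicate block left 3 calls against the control. Same-numbered libraries of control and clone 2 did not deviate together (r = -0.018). The labels tie the replicate numbers to no batch, and the numbers were not taken as pairs. Spike-in counts, given below, did split by replicate number, and this correlation cannot show that the numbers mark no batch. Against the siRNA control these values changed sign: SMARCAL1 -0.044, CD274 -1.20, CD109 0.29, PLAG1 1.52, JPH3 1.12, CXCL8 -0.21, HLA-E -0.055, PPP1R15A -0.32, SRSF3 0.065, HNRNPM 0.26, MT2A 0.093 and KRT18 0.42. So did 9 of the 29 list medians: p53 targets 0.13, basal markers 0.44, NF-kappa-B targets -0.25, cytokines and chemokines -0.75, MHC class I genes -0.10, NRF2 targets -0.28, interferon-stimulated genes -0.073, fork genes 0.044 and checkpoint genes -0.0021. Of the 29, 11 moved by more than their spread between replicates. With single libraries left out, CD274 ran from -0.17 to 2.09, SAA1 from -0.32 to 0.12, FOSL2 from -0.28 to 1.29 and KRT18 from -0.38 to 0.034. SAA1 turned to -0.37 against clone 1 alone. The clone 1 and clone 3 alternatives were chosen after seeing the data. With 2 shallow libraries a group, small changes were not detectable.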

Other observations

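Every PLATE-seq library numbered replicate 1 held 351 to 632 spike-in counts, and every library numbered replicate 2 held 3 to 17. In clone 2 these were 351 and 6 counts, and in the control 476 and 11. Spike-ins did not enter library sizes.

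Genes of other groups were higher in clone 2 than in the control without overlap and without passing. ITGB1 and ACTN4 lay above all 10 other PLATE-seq libraries, and COL6A2 did not. ITGB1, the integrin beta-1 subunit, had 47.8 and 59.4 CPM in clone 2 and at most 31.6 CPM in the 10 other PLATE-seq libraries (0.93, adjusted p 0.507). ACTN4, an actin crosslinker, had 1265 and 930.3 CPM in clone 2, against 556 and 773 CPM in the control (0.72, adjusted p 0.310). COL6A2, a collagen VI chain, had 108 and 128 CPM against 57.5 and 63.3 CPM (0.97, adjusted p 0.317), and clone 1, at 109 and 102 CPM, overlapped clone 2.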
